A study of Rattus norvegicus with 6 samples.

Results

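Cholesterol is built from acetyl-CoA through mevalonate, isoprenoid diphosphates, squalene and lanosterol, and 9 enzymes of that route are described here in rat renal cortex: Hmgcs1, Mvd, Idi1, Fdps, Fdft1, Sqle, Lss, Cyp51 and Dhcr7. Their probes were chosen by name alone, as the probes other than control spots whose file identifier is a RefSeq transcript of one of the 9 genes. This found 19 probes for all 9 genes, out of 61537 such probes and 15645 gene symbols with a probe. Of the 9 genes, 3 had 3 probes, 4 had 2 and 2 had 1. All 19 probes were well above background on all 6 arrays, so none was lost to the filter on dim probes.

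The tissue was the renal cortex of male Sprague-Dawley (Crl:CD(SD)) rats that were 5 weeks old when obtained, with 1 Agilent 1-colour array per animal. Chlorothalonil is an aromatic nitrile used against fungi on crops, and 3 rats were given 500 mg/kg/day of it over 4 weeks. The other group, also of 3, had corn oil over the same 4 weeks. The labels give no genetic change in any animal, and the series calls the arrays of a group biological replicates. The source name of chlorothalonil replicate 3 names ethylenediamine dihydrochloride, another compound. Every other label of that array names chlorothalonil, so it was kept in that group, and results are also given without it.

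In animal cells the transcription factor SREBP2 is known to switch on the genes of this route when membranes run low in cholesterol, and sterols hold it back. Kidney cells both make cholesterol and take it up from lipoproteins, and the proximal tubule, which fills most of the cortex, is rich in membranes.

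Levels are log2 of the scanner's processed signal minus the same array's 75th percentile of it, and differences are chlorothalonil minus corn oil. A gene with several probes is given by its brightest one, and the other probes follow. A level can be compared between arrays for 1 probe but not between probes. Differences were tested with limma across 31098 features, with Benjamini-Hochberg adjusted p under 0.05 as the threshold.

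None of the 9 enzymes passed that threshold (0 of 9), where 980 of 31098 features did, which is 3.15% (1.29% higher and 1.87% lower with chlorothalonil). Before adjustment, 3 of the 9 had p under 0.05 in limma (2 higher, 1 lower), and so did 19.6% of all features (9.53% higher, 10.1% lower). Mvd was lower with chlorothalonil by 0.44 on the log2 scale, and Lss and Dhcr7 were higher by 0.77 and 0.61. The 9 differences ran from −0.44 to 0.77, with 4 above 0 and 5 below. Their median was −0.07, against 0.00 over all features (0.00414). In a piece of cortex, fewer cells of a type and less RNA per cell cannot be told apart.

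All 3 chlorothalonil arrays lay on 1 slide and all 3 corn oil arrays on another, scanned on different days, so slide and treatment cannot be told apart in any value here. Of the 10 spike-in controls, RNAs added in fixed amounts, 8 were well above background on all arrays. Of these 8, 7 were lower on the chlorothalonil slide and 1 higher, with differences from −0.34 to 0.05 and a median of −0.13. Their part in the values of the enzymes was not tested. Between 38234 and 41711 probes per array were well above background, and no probe was saturated. Of the 980 features that passed, 400 were higher and 580 lower with chlorothalonil, and with scaling to the array median the split was 456 higher and 403 lower of 859.

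The promoters of Mvd, Lss and Dhcr7 are shown because these are the 3 enzymes whose unadjusted p was under 0.05 and whose differences ran in opposite directions. Each is the 250 bases before the gene's start, 5′ to 3′ along the gene, from RefSeq on build GRCr8. That table held 7 of the 9 enzymes. Capitals mark the letters CCAAT, which the factor NF-Y binds beside SREBP in many sterol genes, and the letters GGGCGG of the GC box, which Sp1 binds. Where the motif is on the other strand, it reads ATTGG for NF-Y, and for Sp1 it reads CCGCCC.
Mvd, chr19:67414975-67415224, minus strand: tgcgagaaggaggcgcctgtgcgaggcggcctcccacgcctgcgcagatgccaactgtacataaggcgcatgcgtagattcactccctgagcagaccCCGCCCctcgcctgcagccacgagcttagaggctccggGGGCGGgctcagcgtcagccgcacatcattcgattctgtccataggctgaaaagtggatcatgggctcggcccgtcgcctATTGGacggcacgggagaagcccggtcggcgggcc
Lss, chr20:12118231-12118480, minus strand: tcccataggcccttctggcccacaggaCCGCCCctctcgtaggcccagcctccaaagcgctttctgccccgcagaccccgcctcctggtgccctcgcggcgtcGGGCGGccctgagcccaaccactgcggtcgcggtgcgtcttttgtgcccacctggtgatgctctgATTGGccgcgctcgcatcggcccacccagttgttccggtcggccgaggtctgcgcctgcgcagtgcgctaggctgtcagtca
Dhcr7, chr1:208444184-208444433, plus strand: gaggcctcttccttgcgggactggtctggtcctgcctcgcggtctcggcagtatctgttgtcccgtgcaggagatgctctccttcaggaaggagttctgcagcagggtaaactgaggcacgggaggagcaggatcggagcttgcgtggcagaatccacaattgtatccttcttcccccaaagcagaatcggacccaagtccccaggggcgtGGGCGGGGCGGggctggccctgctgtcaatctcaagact

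In Mvd the CCAAT box lay 35 to 31 bases before the start and in Lss 82 to 78 bases before it, on the other strand in both. Dhcr7 had none in this window, and its 2 GC boxes overlapped by 1 base, at 39 to 34 and 34 to 29 bases before the start. The motifs were searched on both strands of this window in all 33469 promoters of the table. CCAAT was found in 5 of the 7 enzymes, Hmgcs1, Mvd, Idi1, Fdps and Lss, and in 34% of all promoters. The GC box was found in 6 of the 7 and in 30.5% of all. The letters TCACNCCAC, 1 strict form of the sterol regulatory element, were in 0 of the 7 and in 0.974% of all. The E-box CACGTG was in 0 of the 7 and in 5.59% of all. At such shares 0 of 7 says little, and other forms or bases outside this window were not searched. The core of the antioxidant response element, TGACNNNGC, was in 2 of the 7, Idi1 and Fdps, and in 10.1% of all. A match to these letters is a description of the sequence only, and a GC box can overlap other motifs.

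The first enzyme, Hmgcs1, condenses acetoacetyl-CoA with acetyl-CoA to the precursor of mevalonate. Its levels were 2.67, 2.71 and 2.86 in chlorothalonil replicates 1 to 3 and 2.70, 2.74 and 2.73 in corn oil replicates 1 to 3. The groups overlapped, and the difference was 0.02 ± 0.07 (SE, n = 3 per group; 95% interval −0.16 to 0.20; limma adjusted p = 0.895). Its other 2 probes differed by −0.12 and 0.15, so the 3 probes of Hmgcs1 did not share a direction. On the probe at 0.15, the dimmest, every chlorothalonil array lay above every corn oil array, as for 13.6% of all features. Its limma adjusted p was 0.399 in a fit with every probe as a feature.

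Mvd decarboxylates mevalonate diphosphate to isopentenyl diphosphate, the building block of all isoprenoids. Its processed signal was 1137, 1246 and 1147 in chlorothalonil replicates 1 to 3, against 1481, 1901 and 1643 in corn oil replicates 1 to 3. As levels these were 0.35, 0.42 and 0.45 with chlorothalonil and 0.72, 0.99 and 0.82 with corn oil. Every chlorothalonil array lay below every corn oil array, and the chlorothalonil arrays lay closer together (SD 0.05 with chlorothalonil and 0.13 with corn oil, n = 3 each). The difference was −0.44 ± 0.09 (SE), or 0.739-fold, with a 95% interval from 0.636 to 0.858-fold. This was the smallest p of the 9, unadjusted 0.00266 and adjusted 0.0666 in limma and it ranked 1243 among the 31098 features. Mvd passed under 2 of the 18 alternatives, with an adjusted p of 0.0351 with eBayes set to trend and robust and 0.046 with normexp background correction, where 4.50% and 4.45% of features passed. Over all alternatives its adjusted p ran from 0.0351 to 0.193 and its difference stayed below 0. Only 1 probe carried a RefSeq identifier of Mvd, so no other probe was read for it.

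**Figure D1:**
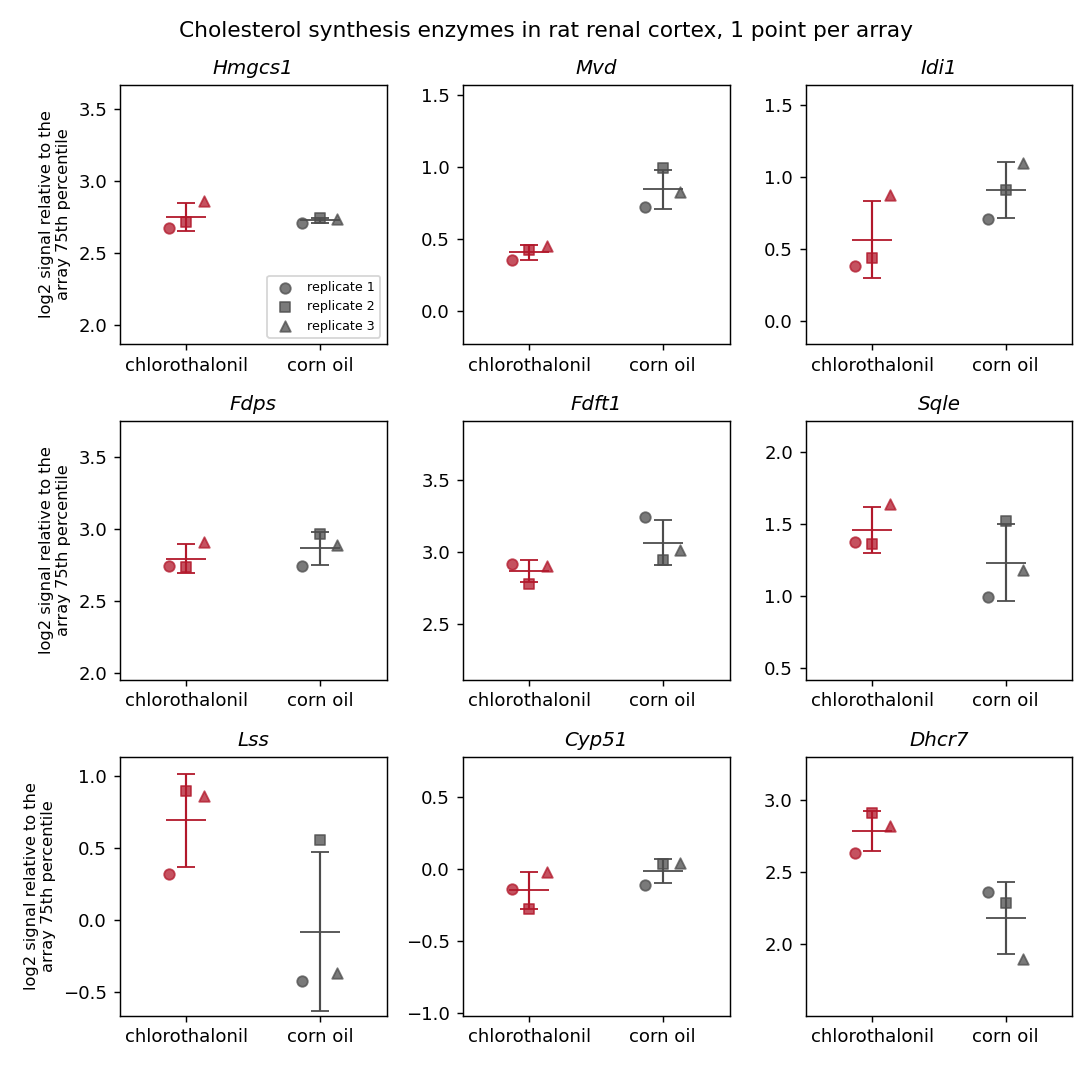
Levels of the 9 enzymes on each array, in pathway order from left to right and top to bottom. The y axis is the log2 signal relative to the array's 75th percentile and spans the same width in each panel, points are single arrays (chlorothalonil at left, corn oil at right), and bars are the mean and SD of 3 arrays. Mvd, Fdft1 and Dhcr7 are the 3 panels in which the groups do not overlap, and Lss shows corn oil replicate 2 at 0.55 beside −0.43 and −0.37.

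The isoprenoid enzymes came next. Idi1 interconverts isopentenyl and dimethylallyl diphosphate. Its levels were 0.38, 0.44 and 0.87 in chlorothalonil replicates 1 to 3 and 0.71, 0.91 and 1.10 in corn oil replicates 1 to 3. Chlorothalonil replicates 1 and 2 lay below all corn oil arrays, and replicate 3, the array with the other compound in its source name, lay among them. The difference was −0.34 ± 0.17 (SE, n = 3 per group; limma adjusted p = 0.328). On the other 2 probes of Idi1, at −0.34 and −0.19, chlorothalonil replicate 3 was likewise the highest of its group. Without chlorothalonil replicate 3 the difference was −0.50, with an adjusted p of 0.191.

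Fdps joins these units to farnesyl diphosphate, where the branches to sterols, dolichol, ubiquinone and prenylated proteins part. Its levels were 2.74, 2.74 and 2.91 with chlorothalonil and 2.74, 2.97 and 2.89 with corn oil, and the groups overlapped. All 3 of its probes lay close to 0, at −0.07, −0.06 and −0.07, and the 95% interval of the brightest ran from −0.29 to 0.15 (limma adjusted p = 0.720). A change of Fdps by 1.5-fold or more lies outside that interval, as it does for Hmgcs1, Fdft1 and Cyp51.

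Fdft1, squalene synthase, makes the first step that leads to sterols only. Its brighter probe had levels of 2.92, 2.78 and 2.90 with chlorothalonil and 3.24, 2.94 and 3.01 with corn oil. The groups did not overlap on that probe, with chlorothalonil lower by −0.20 ± 0.10 (SE, n = 3 per group; limma adjusted p = 0.342). On its dimmer probe they overlapped, and the difference was −0.01, so the 2 probes of Fdft1 gave different pictures. Both probes had corn oil replicate 1 as their highest array.

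Sqle adds oxygen to squalene and is a rate-controlling enzyme of the sterol branch. Its levels were 1.37, 1.36 and 1.64 with chlorothalonil and 0.99, 1.52 and 1.18 with corn oil. The corn oil arrays spread over more than the gap between the groups, and the difference was 0.23 ± 0.16 (SE; 95% interval −0.16 to 0.62; limma adjusted p = 0.486). The other probe of Sqle, at 0.15, ordered the corn oil arrays in the same way, with replicate 2 highest and replicate 1 lowest.

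Lss closes oxidosqualene to lanosterol, the first sterol of the route. Its processed signal was 1109, 1727 and 1521 in chlorothalonil replicates 1 to 3, against 667, 1405 and 718 in corn oil replicates 1 to 3. As levels these were 0.31, 0.89 and 0.86 with chlorothalonil and −0.43, 0.55 and −0.37 with corn oil. Corn oil replicate 2 lay above chlorothalonil replicate 1, so the groups overlapped, while the other two corn oil arrays lay below all chlorothalonil arrays. Lss had the largest difference of the 9 and the widest spread, 0.77 ± 0.31 (SE, n = 3 per group), or 1.71-fold with a 95% interval from 1.01 to 2.89-fold (limma adjusted p = 0.250). Its second probe gave 0.84 ± 0.29 with an adjusted p of 0.203 in a fit with every probe as a feature, and its arrays stood apart in the same way, at −1.05, −0.55 and −0.49 with chlorothalonil and −1.80, −0.94 and −1.86 with corn oil. The high corn oil replicate 2 was thus read by both probes. Without corn oil replicate 2 the difference was 1.09, with an adjusted p of 0.105. That was the largest of the 6 fits without single arrays. Over these the difference ran from 0.60 to 1.09 and the limma adjusted p from 0.105 to 0.460.

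**Figure D2:**
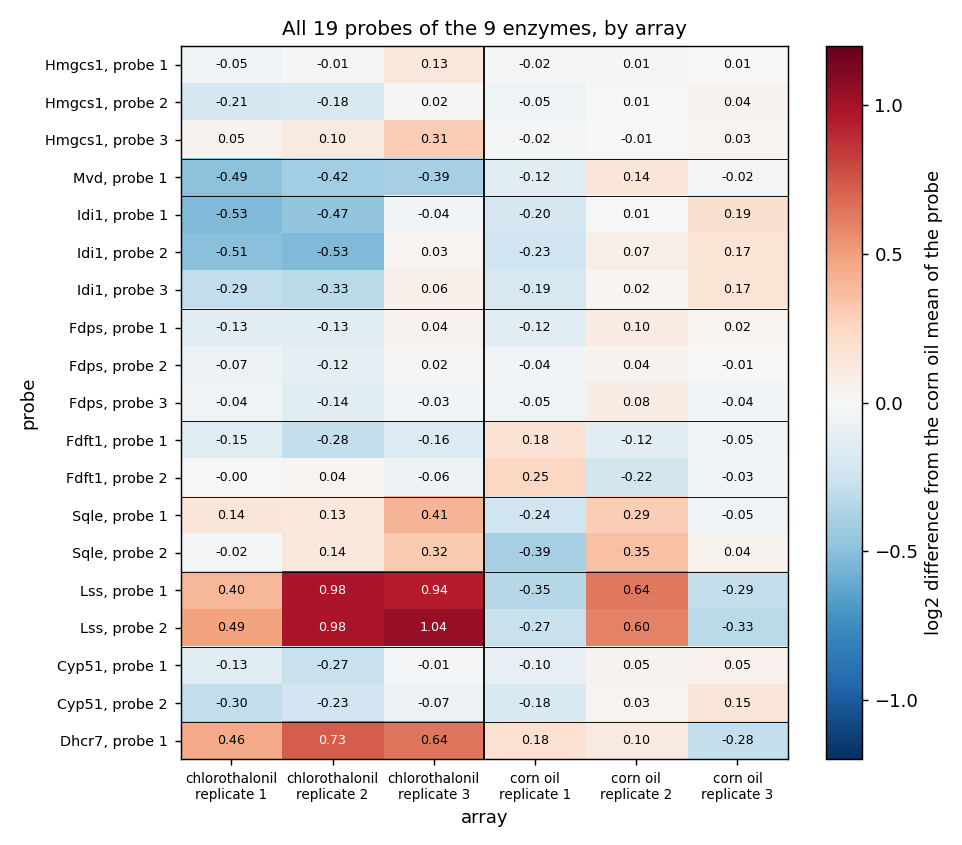
All 19 probes of the 9 enzymes as rows and the 6 arrays as columns, with the probes of a gene from brightest to dimmest. Each cell is the log2 difference of that array from the corn oil mean of the same probe. Both Lss probes show the high corn oil replicate 2 (levels of 0.55 and −0.94), and the 3 Idi1 probes show chlorothalonil replicate 3 above the other two chlorothalonil arrays (0.87 on the brightest).

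Cyp51, the cytochrome P450 that takes a methyl group off lanosterol, had levels of −0.14, −0.28 and −0.02 with chlorothalonil and −0.11, 0.04 and 0.04 with corn oil. The groups overlapped, and its 2 probes were at −0.14 and −0.20 (limma adjusted p = 0.466 for the brighter).

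Dhcr7 carries out the last reduction, which gives cholesterol. Its processed signal was 5555, 6989.8 and 5932 in chlorothalonil replicates 1 to 3, against 4619, 4676 and 3462 in corn oil replicates 1 to 3. As levels these were 2.64, 2.91 and 2.82 with chlorothalonil and 2.36, 2.29 and 1.90 with corn oil. Every chlorothalonil array lay above every corn oil array, and corn oil replicate 3 was the lowest of all. The difference was 0.61 ± 0.15 (SE, n = 3 per group), or 1.52-fold with a 95% interval from 1.19 to 1.96-fold. Its unadjusted p was 0.00633 and its adjusted p 0.101 in limma, and over the 18 alternatives the adjusted p ran from 0.0543 to 0.253 with the difference always above 0. Dhcr7 also had only 1 probe with its RefSeq identifier.

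**Figure D3:**
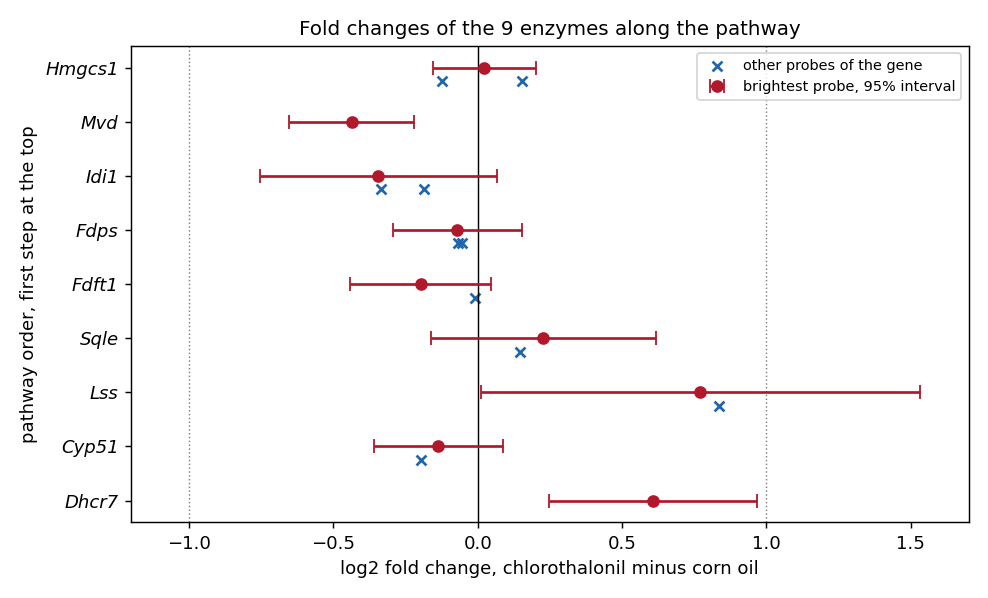
Log2 fold change, chlorothalonil minus corn oil, of the 9 enzymes from the first step of the pathway at the top to the last at the bottom. Circles are the brightest probe of a gene with its 95% interval, crosses are its other probes, and dotted lines mark 2-fold. The intervals of Mvd, Lss and Dhcr7 leave out 0, and only that of Lss reaches past 2-fold.

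The differences of the 9 enzymes ran in both directions. On the brightest probes, the groups did not overlap for 3 of the 9, with Dhcr7 higher and Mvd and Fdft1 lower. Such a split was found for 27.6% of all features (13.6% higher, 13.9% lower). The difference between Dhcr7 and Mvd on the same array does not change when each array is scaled by 1 constant. It can change with quantile normalization or normexp. This pair was chosen after its values were seen. The difference between the 2 genes was 2.29, 2.49 and 2.37 on the log2 scale in chlorothalonil replicates 1 to 3. In corn oil replicates 1 to 3 it was 1.64, 1.30 and 1.08. It thus averaged 2.38 ± 0.10 with chlorothalonil and 1.34 ± 0.28 with corn oil (SD, n = 3 each), a difference of 1.04. Since both genes were chosen for groups that do not overlap, in opposite directions, this is a description with no test. The median absolute difference was 0.23 for the 9 enzymes and 0.14 over all features. The 95% interval lay within 2-fold for 8 of the 9, all but Lss.

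Each animal had 1 array, so a difference between animals and one between arrays cannot be told apart. In chlorothalonil replicate 3, 6 of the 9 enzymes had their highest level within the group and 0 their lowest, where 38.7% and 35.0% of all features did. In corn oil replicate 1, 7 of the 9 had their lowest level within the group, all but Fdft1 and Dhcr7, which were highest there, and 30.4% of all features had their lowest level there. In corn oil replicate 2, 5 of the 9 were highest, and 33.6% of all features. Whether these counts differ from those shares was not tested. With each enzyme set to its own mean over the 6 arrays, the median of the 9 was −0.06, −0.09 and 0.12 in chlorothalonil replicates 1 to 3 and −0.03, 0.14 and 0.04 in corn oil replicates 1 to 3. This profile spanned 0.23 in all and did not separate the groups. The genes outside the lists whose own profiles lay nearest to it, by root mean square difference over the 6 arrays, were Acsl5, at 0.029, Snrpa1, Mageh1, Nap1l1 and Tomm70, at 0.034, out of 10846 candidates. Acsl5 activates fatty acids, Snrpa1 is a part of the spliceosome, and Tomm70 imports proteins into mitochondria. The SD was larger with corn oil than with chlorothalonil for 6 of the 9 enzymes, and for 53.3% of all features.

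Without chlorothalonil replicate 3, 0 of the 9 enzymes passed in limma, with 3 at p under 0.05 before adjustment, where 0.611% of all features passed and 16.6% had such a p. The differences were then −0.03 for Hmgcs1, −0.46 for Mvd, −0.50 for Idi1, −0.13 for Fdps and −0.22 for Fdft1. They were 0.14 for Sqle, 0.69 for Lss, −0.20 for Cyp51 and 0.59 for Dhcr7. Only Hmgcs1 took another sign, and both of its values lay close to 0.

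Related genes were taken from lists of named functions. Over all features, 3.15% passed in limma and 19.6% had p under 0.05 before adjustment, the shares to set beside each list. Of 11 measured other enzymes of the pathway, 0 passed in limma, with 1 at p under 0.05 before adjustment. Of the 11, 6 lay above 0 and 5 below, and the list median was 0.03.

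Of 7 listed genes for SREBP and its regulators, 6 were measured, and Srebf1, the gene of SREBP1, had no probe with its RefSeq identifier. Of these 6, 0 passed in limma and 0 reached p under 0.05 before adjustment, with differences from −0.11 to 0.12. Insig2, which holds the SREBP complex in the endoplasmic reticulum, had the smallest p, at 0.09 ± 0.06 (SE; limma adjusted p = 0.448). Of 9 measured genes of cholesterol uptake and transport in the cell, 0 passed in limma. Before adjustment, 4 reached p under 0.05 in limma, where 19.6% of all features did. Of the 9, 7 lay below 0, with a median of −0.10 against 0.00 over all features. Npc2, which carries cholesterol out of lysosomes, was at −0.20 ± 0.07 (SE; limma adjusted p = 0.186). Every chlorothalonil array lay below every corn oil array, as for 13.9% of all features.

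Of 10 measured genes of cholesterol efflux, LXR and oxysterols, 0 passed in limma and 4 reached p under 0.05 before adjustment. Apoe, the apolipoprotein that carries cholesterol out of cells, lay just outside the threshold. Its levels were 5.63, 5.93 and 5.88 with chlorothalonil and 6.42, 6.91 and 6.60 with corn oil, so the groups did not overlap. The difference was −0.83 ± 0.15 (SE, n = 3 per group), or 0.562-fold, with a limma adjusted p of 0.0508. Apoe passed with quantile normalization (adjusted p = 0.0458), with probes well above background on all 6 arrays only (0.0423), with normexp (0.0341) and with eBayes set to trend and robust (0.0298), and its adjusted p without single arrays ran from 0.0689 to 0.146.

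Of 9 measured genes in the other branches of the mevalonate pathway, 0 passed in limma and 3 reached p under 0.05 before adjustment, with a median of −0.02. Icmt, which methylates prenylated proteins, was at 0.26 ± 0.07 (SE; limma adjusted p = 0.138). Of 12 measured fatty acid synthesis genes that SREBP1 is known to regulate, 1 rose and 11 did not pass. The 1 was Mid1ip1, which activates acetyl-CoA carboxylase. Its levels were 3.17, 3.18 and 3.15 with chlorothalonil and 2.57, 2.74 and 2.74 with corn oil. The difference was 0.49 ± 0.07 (SE, n = 3 per group), or 1.40-fold (limma adjusted p = 0.0328), and its other probe gave 0.49. Mid1ip1 did not pass when any 1 of the 6 arrays was left out, with adjusted p from 0.0702 to 0.119.

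**Figure D4:**
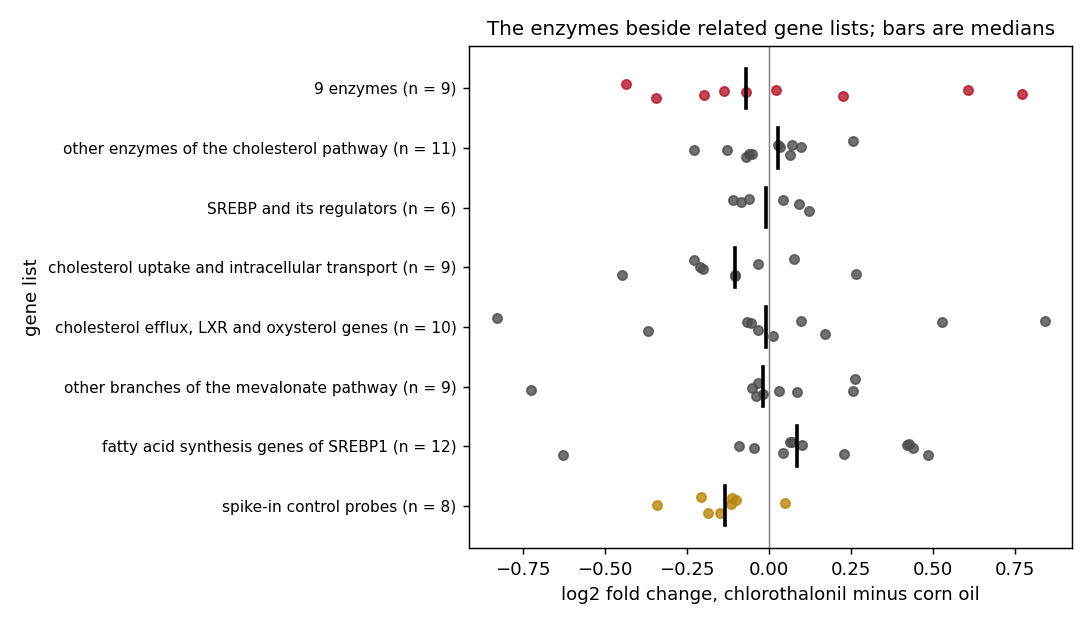
Log2 fold change, chlorothalonil minus corn oil, of the 9 enzymes, of the measured genes of 6 related lists and of the 8 spike-in control probes well above background on all arrays. Points are genes or control probes, and black bars are medians. The enzymes spread from −0.44 to 0.77 around a median of −0.07, and the spike-ins have a median of −0.13.

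Of 12 genes known as targets of the antioxidant factor NRF2, 8 rose, 0 fell and 4 did not pass on the same arrays, with a median of 1.40. Abcc3, Abcc4, Gstp1 and Gsta3 had the smallest p, with rises of 2.23 ± 0.10 (SE), 2.13 ± 0.10, 2.93 ± 0.14 and 1.63 ± 0.08 (limma adjusted p from 0.00243 to 0.00337). The values of Gstp1 and Gsta3 are uncertain, since the probes of each differed. The rises ran from 2.93 to 4.46 for Gstp1 and from 1.63 to 4.07 for Gsta3, and the brightest probe gave the smallest. Both genes have near-identical family members, and the cause of the spread was not tested. Without chlorothalonil replicate 1 or corn oil replicate 3, 5 of the 12 passed.

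All 9 listed proximal tubule markers were measured, as the label of renal cortex calls for, and 0 passed in limma, with 4 at an unadjusted p under 0.05. Of the 9, 5 lay above 0 and 4 below. Of the 4 with that p, Slc13a3 and Slc34a1 were higher, at 0.34 and 0.27. Slc5a2 and Slc5a12 were lower, at −0.35 and −0.27. The summed signal of the 9, in units of the array's 75th percentile, was 1749.9 to 1825 with chlorothalonil and 1506 to 1696 with corn oil. The brightest markers weigh most in this sum. The adrenal gland is a steroid-making neighbour of the kidney. Of its 7 listed markers, Cyp11b1, Cyp11b2, Star and Mc2r were not well above background on any array. The 2 measured adrenal markers, Cyp21a1 and Fdx1, were well above background on all 6 arrays. They summed to 29.7 to 33.5 with chlorothalonil and 25.8 to 28.9 with corn oil, mostly from Fdx1. Cyp21a1 had mean levels of −2.11 with chlorothalonil and −2.09 with corn oil. The 5 measured of 7 fat tissue markers summed to 1.83 to 2.64 with chlorothalonil and 1.73 to 1.98 with corn oil. Of these 5, 0 passed in limma, and 4 lay above 0 and 1 below. An unadjusted p under 0.05 was reached by 2, Cidea at 0.58 and Ucp1 at 0.86. Ucp1 was well above background on only 3 arrays. The 4 measured of 5 liver markers summed to 2.75 to 8.60 with chlorothalonil and 0.350 to 7.30 with corn oil. The low end was corn oil replicate 1, where all 4 had their lowest level of the 6 arrays. Alb was at −4.91 there, and at 2.00 and 1.49 in corn oil replicates 2 and 3. Ttr, well above background on 5 of the 6 arrays, was at −5.64 there, against 1.15 and 0.92. The 4 red blood cell markers summed to 556 to 602 with chlorothalonil and 475 to 497 with corn oil, with 0 passing in limma and 4 at an unadjusted p under 0.05. In the remaining 6 marker lists, for the thick ascending limb and distal tubule, collecting duct, podocytes, endothelium, macrophages and lymphocytes, and fibroblasts, 0 genes passed in limma and 3 reached p under 0.05 before adjustment. The part of any of these in the values of the enzymes was not tested.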

How the data were processed

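Per the file headers, the deposited scanner files hold the processed signal, a background-subtracted intensity per spot, from Agilent Feature Extraction 10.7. The deposited value table holds a linear ratio, which was the processed signal divided by 1 constant per array, 1.002 to 1.005 times the 75th percentile, with column medians of 0.105, 0.105 and 0.106 for chlorothalonil and 0.107, 0.109 and 0.112 for corn oil. It has no centring of genes.

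Control spots and outlier spots were left out, and log2 of the intensity minus the array's 75th percentile was taken. Probes well above background on all 3 arrays of a group were kept (39862 of 61537). Identifiers gave 28206 probes 1 gene symbol and 33331 none. A gene is its brightest kept probe, and each unnamed probe is a feature of its own. Features, 31098 in all, were tested by lmFit and eBayes of limma 3.58.1 (R 4.3.3), and the number of arrays limits the precision. It was tested on simulated data first.

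The members and lists were chosen with earlier results of these data known. Besides the 9 enzymes and some cell type markers, the text names the 5 genes nearest to the enzymes' median profile. From a list it names up to 4 genes that passed, or else the 1 with the smallest p. The gene this rule takes from the list of other pathway enzymes is not reported here. Alternatives covered background correction, normalization, the value table, filters, probe choice, the variance prior, a replicate block and leaving out each array.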

Additional observations from a re-analysis of the deposited data

How the results depend on the processing

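Of 18 alternatives, 1, merging unnamed probes by identifier, was chosen after seeing the data. The planned slide block could not be fitted, since each slide holds 1 group. Of the 9 enzymes, 8 kept their direction under all 18, and Hmgcs1 was −0.033 without chlorothalonil replicate 3 (range without single arrays −0.033 to 0.062). The count of enzymes that passed was 1, Mvd, with normexp and 1 with eBayes set to trend and robust, and 0 under the others, 0 to 0 without single arrays. Their median without single arrays ran from −0.13 to −0.02. Over all features, 980 passed, 159 with no filter on dim probes and 909 with unnamed probes merged. Without single arrays the count ran from 120 to 396: 120, 149 and 194 without chlorothalonil replicates 1, 2 and 3, and 396, 308 and 221 without corn oil replicates 1, 2 and 3. The main fit did not pair animals by replicate number, and whether the numbers pair them is not settled by these values. The deviations of same-numbered arrays correlated at 0.094, 0.021 and 0.049. Each chlorothalonil array correlated best with its same-numbered corn oil array, but corn oil replicate 2 correlated best with chlorothalonil replicate 3, at 0.043. With the replicate block 0 features passed in limma (5570 at an unadjusted p under 0.05, smallest adjusted p 0.0757), so 0 NRF2 markers and 0 fatty acid synthesis genes did. The fatty acid synthesis count was also 0 with no filter, and 0 to 0 without single arrays. The NRF2 count was 5 to 8 without single arrays. The efflux list count was 1, Apoe, with normexp, with quantile normalization, with probes well above background on all arrays, and with eBayes set to trend and robust. The cause of these differences was not tested.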
